A study of Mus musculus with 16 samples.

Results

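The genes described here are 41 genes of cholesterol and fatty acid synthesis, with the genes that control both pathways and that move, store or export sterols. They were read in dendritic cells (DCs) of Ciita-deficient and control mice, each from the array probe set that carries its symbol alone, and from the one with the highest mean where there were several. Of the 41, 38 were measured, among 19938 genes in all. They were 17 of 18 sterol synthesis genes, 5 genes of SREBP control, 4 of 5 genes of LXR and efflux, 4 of 5 genes of sterol transport, storage and oxysterol, and 8 fatty acid synthesis genes. Acat2, Nr1h2 and Soat1 had no probe set of their own and were not analysed here.

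The samples were 16 Affymetrix Mouse Gene 1.0 ST arrays of RNA from 8 mice of the B6 strain. All mice, controls included, carried Zbtb46 GFP/+, a GFP allele at a gene of classical DCs. Mice labelled KO here were Ciita -/- and lacked the MHC class II transactivator, and mice labelled WT were Ciita +/+. From 4 mice, 2 of each genotype, DCs were sorted from the untreated spleen. From the other 4, again 2 of each genotype, whole bone marrow was cultured for 9 days in 5% Flt3l, the growth factor of DCs, and activated with gamma interferon and then with LPS for 4 hours. The gamma interferon time is 16 hours in the series design and 22 hours in the growth protocol. Every mouse gave a CD24+ and a CD172a+ population, on 1 array each, so there were 8 groups of 2 arrays. No age of the mice was stated.

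Levels below are log2 signals minus the median of all genes on the same array, so 0 is the median gene of that array and a difference of 1 is a 2-fold difference. Lists of 4 levels run WT replicate 1, WT replicate 2, KO replicate 1 and KO replicate 2. Differences are given with their standard error (SE) from limma, and a gene was called when its 2-sided p, adjusted by Benjamini-Hochberg over all 19938 genes, was under 0.05. The fit shares a common estimate of a gene's spread over all groups. An SE in the spleen therefore also carries the spread of the culture arrays, and the reverse. The number of arrays limits the precision of every value. Levels of different genes come from different probes and were not compared with each other. In such sorted bulk samples, fewer cells of a type and less RNA per cell cannot be told apart.

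The targeted gene and the cell labels were checked first. The class II gene H2-Ab1, a target of Ciita, lay at 2.41 to 4.79 in the 8 KO arrays and at 6.60 to 6.91 in the 8 WT arrays. The Ciita probe set itself was lower in the KO arrays of the culture (0.20 to 2.81 against 3.24 to 3.92) but overlapped between genotypes in the spleen (3.51 to 3.91 against 3.58 to 4.03), and the sources used here do not say which exons it covers. The summed level of 8 cDC1 markers separated the subsets in the spleen (7.84 to 8.01 in CD24+ and 5.09 to 5.38 in CD172a+ arrays). In the culture it separated them less (7.86 to 8.0 and 7.55 to 7.66), since Irf8 and Cd24a were high in both. Among the 8, Xcr1 and Clec9a were still apart there, at 2.64 to 3.94 and 3.94 to 4.39 in CD24+ arrays against -0.70 to -0.29 and -0.25 to 0.65 in CD172a+ arrays. Batf3, also on the list, was far above the median gene in every cultured CD172a+ array, as given below. Itgae, Tlr3 and Cadm1 are not described here. The summed level of 6 cDC2 markers was higher in CD172a+ arrays of both tissues (6.51 to 6.59 against 2.91 to 3.66 in the spleen and 5.11 to 5.28 against 2.94 to 3.71 in the culture). In the culture Itgam, Cd209a and Clec10a among them overlapped between the subsets, and Clec4a4, Cd209a and Clec10a were below the median gene in every cultured CD172a+ array (-2.01 to -1.33, -0.67 to -0.23 and -2.14 to -1.74). The summed level of 3 markers of plasmacytoid DCs was 5.42 to 5.52 in cultured CD172a+ and 4.21 to 4.52 in cultured CD24+ arrays. In the spleen it was 2.95 to 3.33. That of 3 genes of proliferating cells was 3.08 to 3.55 in cultured CD172a+ and 4.04 to 4.25 in cultured CD24+ arrays. In the spleen it was 4.17 to 4.52. The part of these cells in the differences below was not tested.

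As background, cells make cholesterol from acetyl-CoA through the mevalonate pathway and a long series of sterol steps, and make fatty acids from malonyl-CoA with later desaturation and elongation. Both are driven by the SREBP transcription factors, which are held in the endoplasmic reticulum by SCAP and INSIG proteins when sterols are plentiful and are cleaved and released when sterols are scarce. The LXR nuclear receptors sense oxysterols and act on the opposite side, raising export through ABC transporters and the breakdown of lipoprotein receptors. In macrophages and DCs, interferons and LPS are known to change both arms, in part through the oxysterol made by Ch25h.

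Most sterol synthesis genes share a promoter feature that the choice of genes did not use. RefSeq promoter windows of 250 bases upstream of the start were searched on both strands for the sterol element TCACNCCAC, the CCAAT box, the E-box CACGTG, and the LXR element DR4 (a direct repeat of AGGTCA or AGTTCA with a spacer of 4 bases). A window was held for 32 of the 41 genes. These include Acat2, Nr1h2 and Soat1, which were not measured, while the shares they are set against are of tested genes. CCAAT was found for 14 of 15 sterol synthesis genes (93.3%) and for 4 of 5 genes of SREBP control, against 38.8% of the 15614 tested genes with a window. It was found for 1 of 5 fatty acid synthesis genes and 1 of 4 genes of LXR and efflux. CACGTG was found for 3 of the 15 sterol synthesis genes (20.0%, against 8.11%), TCACNCCAC for 1 of 15 (6.67%, against 1.20%), and DR4 for none of the 32 (against 0.0128%). A gene with several windows counted if any of them matched. A match describes the letters of the window only. CCAAT was also found for Dhcr7, Nsdhl and Ebp, which were lower in cultured than in spleen CD24+ cells, and for Mvk, which was not called. It was not found for Fads2 and Acly, which were higher in culture. The windows printed 5′ to 3′ are those of 5 genes with large differences between culture and spleen and a match, and of Elovl6, a fatty acid gene with none. Capitals mark the matches (ATTGG is CCAAT on the other strand). Build GRCm38.p6 holds them at chr13:119690101-119690350 (plus strand), chr13:8885356-8885605 (plus), chr8:64733579-64733828 (minus), chr9:42264301-42264550 (minus), chr5:28071162-28071411 (plus) and chr3:129532136-129532385 (plus), in the order printed.
Hmgcs1: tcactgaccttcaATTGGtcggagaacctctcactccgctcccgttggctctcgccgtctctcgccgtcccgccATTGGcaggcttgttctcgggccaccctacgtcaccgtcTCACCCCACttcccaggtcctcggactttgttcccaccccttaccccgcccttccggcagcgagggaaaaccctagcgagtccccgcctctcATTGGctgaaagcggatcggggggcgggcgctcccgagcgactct
Idi1: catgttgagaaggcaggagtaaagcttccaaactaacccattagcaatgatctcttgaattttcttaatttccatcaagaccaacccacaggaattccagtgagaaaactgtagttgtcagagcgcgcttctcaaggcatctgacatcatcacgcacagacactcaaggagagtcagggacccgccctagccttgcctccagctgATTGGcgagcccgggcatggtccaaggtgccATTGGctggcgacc
Msmo1: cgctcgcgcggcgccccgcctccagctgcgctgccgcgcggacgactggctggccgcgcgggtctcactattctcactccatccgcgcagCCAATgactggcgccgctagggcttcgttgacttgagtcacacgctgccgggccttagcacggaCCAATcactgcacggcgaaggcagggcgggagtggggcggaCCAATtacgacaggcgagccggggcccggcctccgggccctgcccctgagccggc
Sc5d: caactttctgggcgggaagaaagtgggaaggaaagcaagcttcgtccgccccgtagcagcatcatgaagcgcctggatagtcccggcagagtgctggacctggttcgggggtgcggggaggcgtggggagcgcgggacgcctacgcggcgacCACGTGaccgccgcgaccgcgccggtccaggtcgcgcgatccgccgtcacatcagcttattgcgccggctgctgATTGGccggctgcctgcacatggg
Insig1: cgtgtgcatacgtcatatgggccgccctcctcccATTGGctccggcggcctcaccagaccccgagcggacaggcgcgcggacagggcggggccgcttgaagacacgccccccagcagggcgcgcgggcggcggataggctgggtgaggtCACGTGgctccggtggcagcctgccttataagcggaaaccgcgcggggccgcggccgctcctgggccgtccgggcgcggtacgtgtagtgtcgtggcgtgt
Elovl6: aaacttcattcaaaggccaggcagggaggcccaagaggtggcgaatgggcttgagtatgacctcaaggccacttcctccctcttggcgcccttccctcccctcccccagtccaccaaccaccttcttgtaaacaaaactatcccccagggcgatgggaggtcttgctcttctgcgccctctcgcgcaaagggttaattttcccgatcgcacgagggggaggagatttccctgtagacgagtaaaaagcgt
Hmgcs1 holds the TCACNCCAC match at -137 to -129 from the start and 3 CCAAT matches, the nearest at -45 to -41. Idi1 holds 2 CCAAT matches and Msmo1 holds 3. In Sc5d and Insig1 a CCAAT match stands with a CACGTG match, at -98 to -93 and at -101 to -96.

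The first comparison set the culture against the spleen in each subset. The sterol synthesis genes were mostly higher in the cultured, activated cells. In CD24+ cells 12 of the 17 were called higher and 3 lower, with a median difference of 1.47 against 0.13 over all genes, and in CD172a+ cells 10 were called higher and 2 lower, with a median of 0.87 against 0.15. The 4 measured genes of LXR and efflux, with Abca1 among them low in every array, had medians of 0.09 and -0.42. The 8 fatty acid synthesis genes had medians of -0.74 and -0.85. Source, Flt3l and activation all differed between the tissues and cannot be told apart in this comparison, nor can any separate normalization of the tissues by the authors. Most genes of the array were called, 76.6% in CD24+ and 78.9% in CD172a+ cells, and 31 of the 38 members in each were close to that share. A difference of at least 2-fold was less common. In CD24+ cells 15 members were higher by that much (6.59% of all genes) and 5 lower (8.31%). In CD172a+ cells 12 were higher (6.88%) and 5 lower (10.1%).

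These counts move with the scaling. The median signal as deposited lay between 7.37 and 7.39 for spleen and between 6.89 and 6.97 for culture. Median centring called 9390 genes higher and 5882 lower in CD24+ cells and 9842 higher and 5890 lower in CD172a+ cells. The values as deposited called 2750 higher and 13012 lower, and 3312 higher and 12000 lower, with all-gene medians of -0.34 and -0.28. On the deposited values the sterol synthesis genes still had 11 called higher and 5 lower in CD24+ cells and 8 higher and 6 lower in CD172a+ cells, with medians of 1.00 and 0.44. The median LXR and efflux gene in CD24+ cells changed sign with the scaling, from 0.09 to -0.37 on the deposited values and -0.13 after quantile normalization. Differences below are those of the median-centred values.

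**Figure D1:**
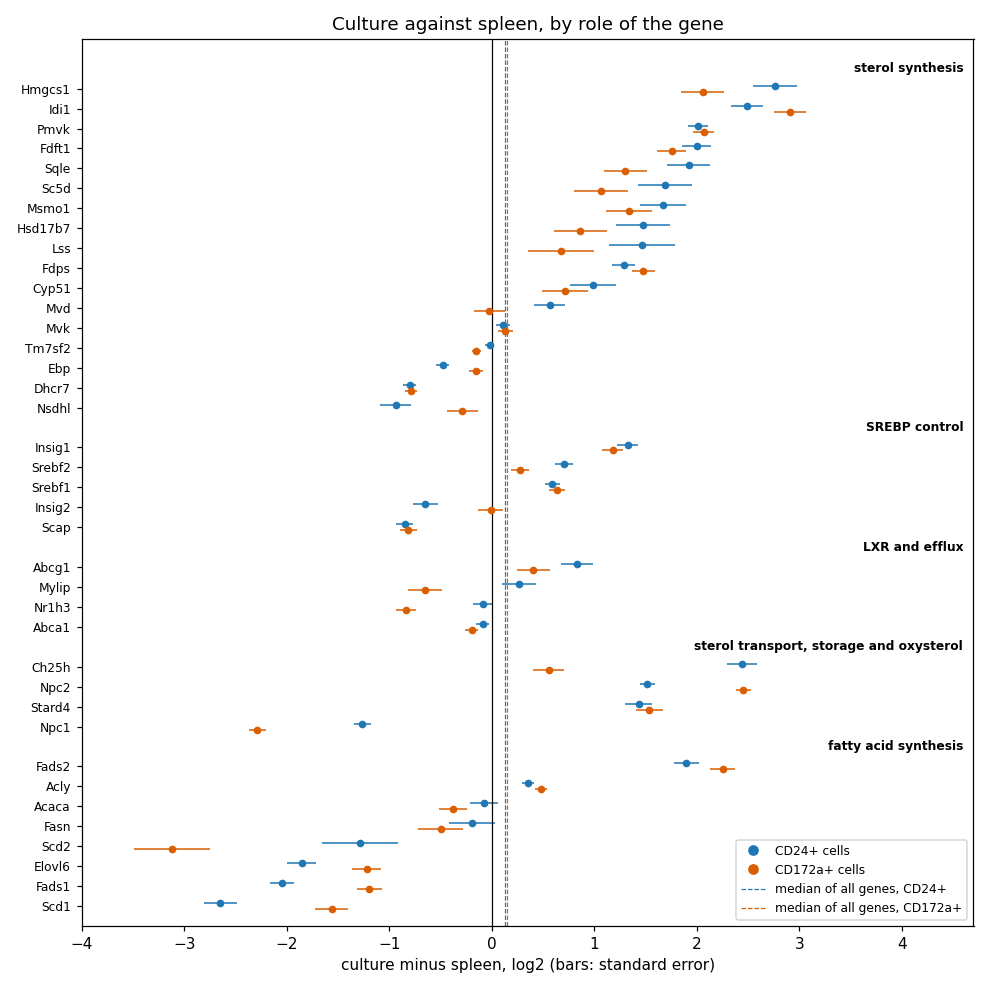
Culture minus spleen for each member, on the log2 scale after median centring, for CD24+ (blue) and CD172a+ (orange) cells, grouped by role. Points are limma estimates over 4 arrays against 4, bars are SEs and dashed lines mark the median of all genes (0.13 and 0.15). Most sterol synthesis genes lie to the right, up to 2.91 for Idi1 in CD172a+ cells, while Scd1, Scd2, Fads1, Elovl6 and Npc1 lie to the left in both subsets.

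Hmgcs1 makes HMG-CoA at the entry of the mevalonate pathway. Its levels in CD24+ arrays were 0.96, 1.25, 1.22 and 1.07 in the spleen and 4.03, 4.29, 4.21 and 3.02 in the culture. In CD172a+ arrays they were 1.22, 1.26, 1.52 and 1.53 in the spleen and 3.60, 3.76, 3.54 and 2.85 in the culture. All 8 culture arrays were above all 8 spleen arrays, and KO replicate 2 was the lowest culture array in both subsets. The difference was 2.76 ± 0.21 in CD24+ cells (adjusted p = 2.06e-07) and 2.06 ± 0.21 in CD172a+ cells (adjusted p = 2.49e-06).

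Idi1, which interconverts the isoprenoid building blocks, was below the median gene in every spleen array and above it in every culture array. It read -0.64, -0.81, -0.52 and -0.87 in spleen and 1.71, 2.04, 1.97 and 1.41 in cultured CD24+ cells, and -0.64, -0.62, -0.28 and -0.36 (spleen) and 2.27, 2.62, 2.73 and 2.13 (culture) in CD172a+ cells. The differences were 2.49 ± 0.16 and 2.91 ± 0.16, and its other probe set gave 2.60 and 2.94. Pmvk, the phosphomevalonate kinase, read 2.39, 1.94, 2.36 and 2.42 in spleen and 4.28, 4.39, 4.44 and 4.04 in cultured CD24+ cells and 2.29, 2.45, 2.38 and 2.33 (spleen) and 4.49, 4.47, 4.41 and 4.35 (culture) in CD172a+ cells. Its culture arrays lay within a narrow range apart from the spleen, with differences of 2.01 ± 0.10 and 2.07 ± 0.10. The other early enzymes did not move alike. Mvk, the mevalonate kinase, lay at 1.03 to 1.19 in the spleen and 0.98 to 1.45 in the culture and was not called in either subset. Mvd, the decarboxylase after Pmvk, read 1.93, 1.80, 1.76 and 1.68 in spleen and 2.32, 2.98, 2.39 and 1.76 in cultured CD24+ cells, and 2.02, 1.93, 2.01 and 1.93 (spleen) and 2.20, 2.01, 1.95 and 1.64 (culture) in CD172a+ cells. Its KO replicate 2 arrays of the culture lay within or below the spleen range. Mvd was called in CD24+ cells only, at 0.57 ± 0.15 (adjusted p = 0.0046), and stood at -0.02 ± 0.15 in CD172a+ cells (adjusted p = 0.896). On the deposited values Mvd in CD24+ cells was 0.11 and not called (adjusted p = 0.513).

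The enzymes that build and close the sterol skeleton were higher in culture, Lss in CD24+ cells only. Fdps, the farnesyl diphosphate synthase, read 3.45, 2.97, 3.22 and 3.06 in spleen and 4.57, 4.67, 4.56 and 4.06 in cultured CD24+ cells, and 2.58, 2.45, 2.72 and 2.72 (spleen) and 4.17, 4.21, 4.04 and 3.96 (culture) in CD172a+ cells. Fdft1, the squalene synthase, read 2.80, 2.73, 2.60 and 2.40 in spleen and 4.72, 4.99, 4.76 and 4.07 in cultured CD24+ cells, and 2.81, 2.63, 2.88 and 2.86 (spleen) and 4.95, 4.60, 4.51 and 4.15 (culture) in CD172a+ cells. For both genes the tissues did not overlap in either subset, and the differences were 1.29 ± 0.11 and 1.48 ± 0.11 for Fdps and 2.00 ± 0.14 and 1.76 ± 0.14 for Fdft1. Sqle, the squalene epoxidase, read 1.80, 1.35, 1.49 and 1.51 in spleen and 3.54, 3.95, 3.78 and 2.57 in cultured CD24+ cells and 1.38, 1.36, 1.61 and 1.56 (spleen) and 2.90, 2.99, 2.82 and 2.41 (culture) in CD172a+ cells. Again KO replicate 2 was the lowest culture array in each subset, and the differences were 1.92 ± 0.21 and 1.30 ± 0.21. Lss, the lanosterol synthase, had the widest spread of this group. It read -0.04, -0.26, -0.13 and 0.02 in spleen and 1.38, 2.29, 1.76 and 0.02 in cultured CD24+ cells, and -0.04, -0.41, 0.18 and -0.30 (spleen) and 0.50, 0.78, 0.72 and 0.12 (culture) in CD172a+ cells. KO replicate 2 of the culture stood at the top of the spleen range in CD24+ cells and within it in CD172a+ cells. The difference was 1.47 ± 0.32 in CD24+ cells (adjusted p = 0.0012) and 0.67 ± 0.32 in CD172a+ cells, which was not called (adjusted p = 0.071).

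Among the later sterol steps, Msmo1, Sc5d, Hsd17b7 and Cyp51 were higher in culture, and Nsdhl, Ebp, Dhcr7 and Tm7sf2 were not. Msmo1, the methylsterol oxidase, read 2.91, 2.97, 2.44 and 2.73 in spleen and 4.63, 4.98, 4.76 and 3.38 in cultured CD24+ cells, and 2.70, 2.78, 2.89 and 2.98 (spleen) and 4.53, 4.41, 4.08 and 3.69 (culture) in CD172a+ cells. Sc5d, the lathosterol desaturase, read 1.88, 1.96, 1.78 and 1.90 in spleen and 3.74, 4.20, 3.90 and 2.46 in cultured CD24+ cells, and 1.63, 1.68, 1.96 and 1.89 (spleen) and 3.38, 3.21, 2.89 and 1.95 (culture) in CD172a+ cells. Both genes were higher in every culture array than in every spleen array of the same subset except Sc5d in CD172a+ cells, where KO replicate 2 overlapped the spleen. Their differences were 1.67 ± 0.22 and 1.34 ± 0.22, and 1.69 ± 0.26 and 1.07 ± 0.26. Hsd17b7, a ketosteroid reductase, read 0.84, 0.62, 0.79 and 0.74 in spleen and 2.18, 2.97, 2.56 and 1.18 in cultured CD24+ cells, and 0.50, 0.61, 0.74 and 0.52 (spleen) and 1.65, 1.87, 1.49 and 0.82 (culture) in CD172a+ cells. Cyp51, the lanosterol demethylase, read 1.46, 1.55, 1.43 and 1.36 in spleen and 2.54, 2.92, 2.82 and 1.50 in cultured CD24+ cells, and 1.28, 1.47, 1.53 and 1.62 (spleen) and 2.50, 2.26, 2.27 and 1.73 (culture) in CD172a+ cells. Within each subset the tissues did not overlap for Hsd17b7, and for Cyp51 KO replicate 2 of the cultured CD24+ cells reached the spleen range. Their differences were 1.47 ± 0.26 and 0.87 ± 0.26, and 0.99 ± 0.22 and 0.72 ± 0.22. The call of Cyp51 in CD172a+ cells was lost without KO replicate 1 of the culture (adjusted p = 0.0505), and both CD172a+ calls were lost on the deposited values (0.44 and 0.29).

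The remaining late enzymes were lower in culture or differed little. Dhcr7, which makes cholesterol from its direct precursor, read 0.86, 0.91, 0.70 and 0.69 in spleen and 0.05, 0.23, -0.06 and -0.25 in cultured CD24+ cells, and 0.52, 0.57, 0.76 and 0.62 (spleen) and -0.18, -0.25, -0.16 and -0.09 (culture) in CD172a+ cells. It was lower in all 8 culture arrays than in all 8 spleen arrays, at differences of -0.80 ± 0.06 and -0.79 ± 0.06. Nsdhl, the sterol dehydrogenase, read 2.93, 3.01, 2.87 and 3.03 in spleen and 2.10, 2.45, 2.15 and 1.39 in cultured CD24+ cells, and 1.99, 2.22, 2.22 and 1.99 (spleen) and 1.78, 1.98, 1.92 and 1.60 (culture) in CD172a+ cells. The culture arrays were below the spleen arrays of their subset, narrowly in CD172a+ cells. The difference was -0.94 ± 0.15 in CD24+ cells, against -0.29 ± 0.15 in CD172a+ cells (adjusted p = 0.098). Ebp, the sterol isomerase, read 3.79, 3.44, 3.48 and 3.53 in spleen and 3.11, 3.12, 3.09 and 3.0 in cultured CD24+ cells, and 3.27, 3.33, 3.22 and 3.20 (spleen) and 3.05, 3.06, 3.13 and 3.18 (culture) in CD172a+ cells. It differed by -0.48 ± 0.07 and -0.15 ± 0.07, and only the CD24+ value was called. Tm7sf2, a sterol reductase, read 0.03, 0.00, -0.03 and 0.01 in spleen and -0.04, 0.03, -0.02 and -0.04 in cultured CD24+ cells, and -0.15, -0.04, 0.01 and 0.00 (spleen) and -0.23, -0.19, -0.20 and -0.14 (culture) in CD172a+ cells. It was close to the median gene throughout and was called lower in cultured CD172a+ cells, at -0.15 ± 0.04.

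The genes of SREBP control did not move together. Insig1, a sterol-dependent anchor and itself an SREBP target, read 1.98, 2.18, 1.97 and 1.87 in spleen and 3.39, 3.67, 3.34 and 2.91 in cultured CD24+ cells, and 2.35, 2.51, 2.33 and 2.37 (spleen) and 3.75, 3.50, 3.60 and 3.42 (culture) in CD172a+ cells. It was higher in all culture arrays, by 1.32 ± 0.10 and 1.18 ± 0.10. Its paralogue Insig2, which is not a known SREBP target, read 2.61, 2.40, 2.42 and 2.59 in spleen and 1.78, 2.01, 2.17 and 1.46 in cultured CD24+ cells, and 1.44, 1.39, 1.37 and 1.30 (spleen) and 1.37, 1.38, 1.45 and 1.27 (culture) in CD172a+ cells. Cultured CD24+ arrays lay below spleen CD24+ arrays, at -0.65 ± 0.12, while the CD172a+ arrays overlapped, at -0.01 ± 0.12 (adjusted p = 0.943). Scap, the escort of the SREBPs, read 3.27, 3.31, 3.20 and 3.36 in spleen and 2.45, 2.45, 2.61 and 2.24 in cultured CD24+ cells, and 3.22, 3.21, 3.21 and 3.05 (spleen) and 2.36, 2.23, 2.33 and 2.51 (culture) in CD172a+ cells. Every culture array was lower, at differences of -0.85 ± 0.08 and -0.81 ± 0.08. Srebf2, which encodes the SREBP that acts mainly on sterol genes, read 3.30, 3.42, 3.41 and 3.30 in spleen and 4.09, 4.19, 4.19 and 3.77 in cultured CD24+ cells, and 3.77, 3.67, 3.75 and 3.72 (spleen) and 4.08, 4.05, 4.08 and 3.81 (culture) in CD172a+ cells. It was higher in culture by 0.70 ± 0.09 and 0.28 ± 0.09. The CD172a+ value of Srebf2 was -0.15 on the deposited values and 0.00 after quantile normalization, and without KO replicate 1 of the culture it was not called (adjusted p = 0.0572). Srebf1, the gene of the SREBP that acts mainly on fatty acid genes, read 1.47, 1.42, 1.76 and 1.62 in spleen and 2.11, 1.92, 2.22 and 2.38 in cultured CD24+ cells, and 1.83, 1.80, 1.83 and 1.78 (spleen) and 2.30, 2.37, 2.72 and 2.40 (culture) in CD172a+ cells. Every culture array was above the spleen arrays of its subset, by 0.59 ± 0.07 and 0.64 ± 0.07.

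The 4 measured genes of LXR and efflux did not move alike. Nr1h3, which encodes LXR alpha, was highest in the spleen CD172a+ arrays. It read 0.56, 0.87, 0.50 and 0.76 there, -0.34 to 0.07 in spleen CD24+ arrays, and -0.17, -0.22, -0.18 and -0.23 and -0.16, -0.11, -0.24 and -0.15 in the cultured CD24+ and CD172a+ arrays. The difference was -0.83 ± 0.10 in CD172a+ cells and -0.08 ± 0.10 in CD24+ cells (adjusted p = 0.461). The summed level of 7 macrophage markers was also highest in the spleen CD172a+ arrays, at 4.78 to 5.51 against 2.98 to 3.50 in spleen CD24+ and 2.82 to 3.22 in culture arrays, and C1qa among them read 1.87, 3.19, 1.32 and 2.46 in those 4 arrays. The part of these markers in the Nr1h3 level was not tested. Abca1, the efflux pump for cholesterol, read -1.01, -0.98, -1.0 and -0.92 in spleen and -1.09, -1.09, -1.11 and -0.97 in cultured CD24+ cells, and -1.03, -0.78, -0.91 and -0.69 (spleen) and -1.02, -0.99, -1.11 and -1.08 (culture) in CD172a+ cells. It was called in CD172a+ cells alone, at -0.20 ± 0.07, and that call was lost without WT replicate 2 or KO replicate 2 of the spleen (adjusted p = 0.0743 and 0.0723). Abca1 was low in every array, between the percentiles 27.6 and 34.9 of all genes in the spleen and 24.6 and 27.7 in the culture. A difference between the tissues may therefore not be readable for Abca1. Abcg1, which exports sterols to lipoproteins, read 1.88, 2.01, 2.01 and 1.96 in spleen and 3.09, 2.99, 2.88 and 2.21 in cultured CD24+ cells, and 2.08, 2.03, 1.84 and 1.82 (spleen) and 2.78, 2.46, 2.43 and 1.72 (culture) in CD172a+ cells. It was the member of this group called higher in culture in both subsets, by 0.83 ± 0.16 and 0.41 ± 0.16. In CD172a+ cells KO replicate 2 was below the spleen arrays, and leaving out WT replicate 1 or KO replicate 1 of the culture, or any 1 of the 4 spleen arrays, ended the call (adjusted p 0.0598 to 0.155). Mylip, the LXR target that marks lipoprotein receptors for breakdown, read 3.89, 4.14, 3.98 and 4.32 in spleen and 4.63, 4.51, 4.59 and 3.66 in cultured CD24+ cells, and 3.72, 3.74, 3.57 and 3.81 (spleen) and 3.46, 3.58, 2.77 and 2.43 (culture) in CD172a+ cells. In CD172a+ cells the KO arrays of the culture lay below all spleen arrays and the WT arrays at the lower edge of the spleen range. The difference was -0.65 ± 0.17 in CD172a+ cells and stood at 0.27 ± 0.17 in CD24+ cells (adjusted p = 0.168). With the WT arrays alone the CD172a+ value of Mylip was -0.21 and was not called.

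Sterol transport split between the paired lysosomal proteins. Npc1, the membrane protein that moves cholesterol out of the lysosome, read 2.19, 2.46, 2.39 and 2.19 in spleen and 0.99, 1.02, 1.22 and 0.96 in cultured CD24+ cells, and 3.13, 3.35, 3.16 and 3.10 (spleen) and 0.97, 0.88, 0.89 and 0.88 (culture) in CD172a+ cells. Npc2, the soluble protein that hands cholesterol to it, read 4.10, 3.73, 4.22 and 4.28 in spleen and 5.56, 5.45, 5.66 and 5.74 in cultured CD24+ cells, and 3.19, 3.20, 3.17 and 3.24 (spleen) and 5.68, 5.57, 5.73 and 5.62 (culture) in CD172a+ cells. The tissues did not overlap for either gene. Npc1 was lower in culture, at -1.26 ± 0.08 and -2.29 ± 0.08, and Npc2 was higher by 1.52 ± 0.07 and 2.45 ± 0.07. Stard4, a carrier of free cholesterol and an SREBP target, read 1.35, 1.01, 1.23 and 1.13 in spleen and 2.65, 2.93, 2.75 and 2.12 in cultured CD24+ cells, and 0.90, 0.71, 1.00 and 0.91 (spleen) and 2.29, 2.55, 2.51 and 2.32 (culture) in CD172a+ cells. It was higher in every culture array, by 1.43 ± 0.13 and 1.54 ± 0.13. Ch25h, which makes 25-hydroxycholesterol, read -1.25, -1.09, -1.17 and -1.13 in spleen and 0.96, 1.39, 1.74 and 1.03 in cultured CD24+ cells, and -1.31, -1.35, -1.25 and -1.39 (spleen) and -0.76, -0.38, -0.83 and -1.11 (culture) in CD172a+ cells. It was higher by 2.44 ± 0.15 in CD24+ and by 0.55 ± 0.15 in CD172a+ cells, and the latter was 0.13 and not called on the deposited values.

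Of the 8 fatty acid genes, 4 were called lower and 2 higher in cultured CD24+ cells, and 5 lower and 2 higher in cultured CD172a+ cells. Over all genes 76.6% and 78.9% were called in either direction, so the number called does not set these genes apart. Scd1, a desaturase that makes oleate, read 0.04, 0.18, 0.63 and 1.04 in spleen and -2.14, -2.30, -2.15 and -2.11 in cultured CD24+ cells, and -0.65, -0.65, -0.99 and -0.08 (spleen) and -1.94, -2.28, -2.13 and -2.28 (culture) in CD172a+ cells. All 8 culture arrays were near the bottom of the scale, between the percentiles 7.35 and 11.3 of all genes, and the differences were -2.65 ± 0.16 and -1.56 ± 0.16. Its paralogue Scd2 read 3.32, 3.27, 3.31 and 3.37 in spleen and 2.57, 3.36, 2.28 and -0.08 in cultured CD24+ cells, and 3.43, 3.23, 3.67 and 3.74 (spleen) and 0.72, 0.59, 0.30 and -0.01 (culture) in CD172a+ cells. The spleen arrays were alike, the cultured CD172a+ arrays were all low, and the cultured CD24+ arrays ranged from the spleen level down to the CD172a+ level, with KO replicate 2 the lowest. Scd2 was lower, at -3.12 ± 0.37 in CD172a+ cells and -1.28 ± 0.37 in CD24+ cells, where the WT arrays alone gave -0.33 and no call (adjusted p = 0.594).

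Fads1, which makes the final desaturation towards arachidonate, read 2.33, 2.57, 2.60 and 2.39 in spleen and 0.51, 0.62, 0.58 and -0.01 in cultured CD24+ cells, and 1.19, 0.94, 1.07 and 1.18 (spleen) and 0.08, -0.16, -0.16 and -0.16 (culture) in CD172a+ cells. Elovl6, the elongase of palmitate, read 2.06, 1.81, 2.13 and 1.78 in spleen and 0.11, 0.56, 0.12 and -0.41 in cultured CD24+ cells, and 0.96, 0.54, 0.84 and 0.73 (spleen) and -0.55, -0.46, -0.46 and -0.34 (culture) in CD172a+ cells. In each subset every culture array of both genes was below every spleen array. Fads1 was lower, at -2.05 ± 0.12 and -1.19 ± 0.12, as was Elovl6, at -1.85 ± 0.14 and -1.22 ± 0.14. Fads2, the desaturase that acts before Fads1 in the same series, moved the opposite way. It read 1.13, 0.87, 1.27 and 1.09 in spleen and 3.18, 3.38, 3.0 and 2.39 in cultured CD24+ cells, and -0.13, -0.14, 0.18 and 0.12 (spleen) and 2.42, 2.22, 2.35 and 2.05 (culture) in CD172a+ cells, with no overlap between the tissues, and was higher by 1.90 ± 0.12 and 2.25 ± 0.12. Fasn and Acaca, the synthase and the carboxylase that make palmitate, had smaller differences. Fasn read 3.10, 3.25, 3.03 and 2.99 in spleen and 3.06, 3.58, 3.17 and 1.79 in cultured CD24+ cells, and 2.41, 2.32, 2.49 and 2.50 (spleen) and 2.08, 2.07, 1.90 and 1.66 (culture) in CD172a+ cells, and Acaca read 1.53, 1.74, 1.46 and 1.43 in spleen and 1.60, 1.83, 1.61 and 0.81 in cultured CD24+ cells, and 1.36, 1.23, 1.43 and 1.35 (spleen) and 1.03, 1.10, 0.99 and 0.75 (culture) in CD172a+ cells. For both genes KO replicate 2 was the lowest culture array in each subset. Fasn stood at -0.19 ± 0.22 and -0.50 ± 0.22 (adjusted p = 0.447 and 0.057), and Acaca at -0.08 ± 0.14 and, called, at -0.38 ± 0.14. Leaving out WT replicate 1 of either tissue, KO replicate 2 of the culture or KO replicate 1 of the spleen ended the call of Acaca (adjusted p 0.0640 to 0.0856). Acly, which makes cytosolic acetyl-CoA for both pathways, read 2.59, 2.70, 2.79 and 2.67 in spleen and 2.96, 2.97, 3.0 and 3.23 in cultured CD24+ cells, and 2.77, 2.67, 2.85 and 2.84 (spleen) and 3.22, 3.22, 3.31 and 3.30 (culture) in CD172a+ cells. It was higher in culture by 0.35 ± 0.06 and 0.48 ± 0.06, but its CD24+ value was -0.11 on the deposited values.

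Other genes of these pathways were counted in 3 lists, where 76.6% of all genes were called in either direction in CD24+ cells and 78.9% in CD172a+ cells. Of 8 measured other sterol and SREBP genes, 1 was called higher and 3 lower in CD24+ cells, and 3 higher and 3 lower in CD172a+ cells, with the lamin B receptor gene Lbr, a sterol reductase, at -0.43 and -1.25. Of 10 other sterol handling genes, 4 were higher and 4 lower in CD24+ cells and 2 higher and 6 lower in CD172a+ cells. Among the lower ones were Lipa, the lysosomal lipase of cholesteryl esters, at -2.57 and -3.45, and Scarb1, a lipoprotein receptor, at -2.56 and -2.27. Of 11 other fatty acid genes, 6 were higher and 3 lower in CD24+ cells and 5 higher and 3 lower in CD172a+ cells, with the citrate carrier gene Slc25a1 at 0.87 and 1.74.

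**Figure D2:**
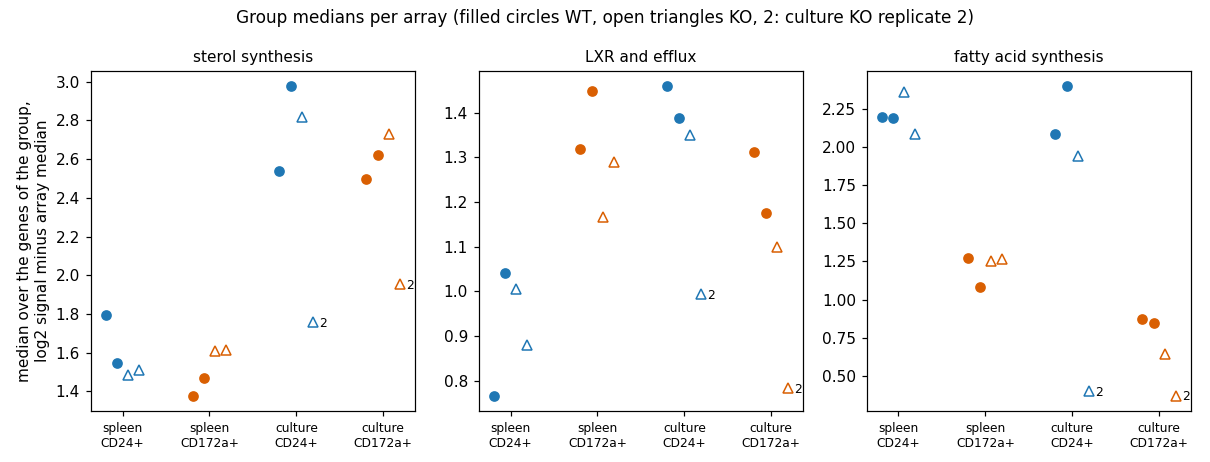
Median level per array of the 17 sterol synthesis, 4 LXR and efflux and 8 fatty acid synthesis genes (log2 signal minus array median), for the 4 combinations of tissue and subset, with WT as filled circles, KO as open triangles and KO replicate 2 of the culture marked 2. Sterol medians lie at 1.38 to 1.80 in the spleen and at 1.76 to 2.98 in the culture, where the lowest arrays are both of KO replicate 2 (1.76 and 1.95).

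The second comparison set the subsets against each other in the spleen. CD24+ cells had higher levels of desaturases and of the elongase, while most sterol enzymes were not called. Over the 38 members 10 were called higher in CD24+ cells, where 13.8% of all genes were, and 5 lower, where 14.3% were. Of the 8 fatty acid synthesis genes 5 were higher and none lower, 4 of them by at least 2-fold, with a median difference of 0.86 against 0.01 over all genes. Fads1 was higher by 1.38 ± 0.12, Elovl6 by 1.18 ± 0.14, Fads2 by 1.08 ± 0.12 and Scd1 by 1.07 ± 0.16, and their CD24+ and CD172a+ arrays given above did not overlap. Scd2 did not pass the test, at -0.20 ± 0.37 (adjusted p = 0.759). Fasn was higher by 0.66 ± 0.22 (adjusted p = 0.0436). With the 8 spleen arrays fitted alone its call stayed, as did all 15 of this comparison, where 32.4% of all genes were called. Its call was lost when any 1 of 12 arrays was left out (the 8 of the spleen and the 4 CD172a+ arrays of the culture), with an adjusted p of up to 0.113.

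In the spleen 3 of the 17 sterol synthesis genes were called, all higher in CD24+ cells, and their median difference was 0.04. They were Nsdhl at 0.85 ± 0.15, Fdps at 0.56 ± 0.11 and Ebp at 0.30 ± 0.07. Insig2 was higher in CD24+ cells by 1.13 ± 0.12, with no overlap. The other genes of SREBP control were lower there except Scap, with Insig1 at -0.39 ± 0.10, Srebf2 at -0.37 ± 0.09 and Srebf1 at -0.24 ± 0.07. Scap stood at 0.11 ± 0.08 (adjusted p = 0.371). The Insig1 call was lost without WT replicate 2 of the CD172a+ arrays or WT replicate 1 or KO replicate 2 of the CD24+ arrays, and that of Srebf1 without any 1 of 7 of the 8 spleen arrays, all but KO replicate 1 of the CD24+ cells (adjusted p of up to 0.102). Npc1 was lower in CD24+ cells, at -0.88 ± 0.08, and Npc2 higher by 0.89 ± 0.07, so the pair was split between the subsets as it was between the tissues. Nr1h3 was lower in CD24+ cells, at -0.79 ± 0.10, with the macrophage markers moving the same way as given above. Of the other genes, 2 of 8 in the sterol and SREBP list were higher and 1 lower, 1 of 10 sterol handling genes higher and 3 lower, and 3 of 11 fatty acid genes higher. Osbpl8, a lipid transfer protein, was the largest of them at -1.05. Over all genes 13.8% were higher and 14.3% lower in CD24+ cells. Neutrophil and erythroid markers ranged widely in the spleen CD24+ arrays (summed levels of 1.71 to 4.87 and 0.70 to 2.95, both highest in KO replicate 2). In the spleen CD172a+ arrays they lay at 1.50 to 2.03 and 0.27 to 0.77. The summed level of B cell markers was 1.81 to 2.43 in spleen CD24+ and 1.39 to 1.69 in spleen CD172a+ arrays. The part of these markers in the differences between the subsets was not tested.

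In the culture the subsets differed most in Ch25h, Scd2 and Mylip, all higher in CD24+ cells. There 12 members were called higher in CD24+ cells (11.6% of all genes) and 3 lower (12.3%). Ch25h was higher by 2.05 ± 0.15, and its CD24+ arrays all lay above its CD172a+ arrays. Scd2 was higher by 1.63 ± 0.37, although its KO replicate 2 array of CD24+ cells, at -0.08, was below all 4 CD172a+ arrays. Mylip was higher by 1.29 ± 0.17, also with no overlap. Of the fatty acid genes 6 of 8 were higher, with a median of 0.53. They were Scd2, Fasn at 0.97 ± 0.22, Fads2 at 0.73 ± 0.12, Elovl6 at 0.54 ± 0.14, Fads1 at 0.52 ± 0.12 and Acaca at 0.49 ± 0.14 (0.34 and not called from its other probe set, adjusted p = 0.0687), while Acly was lower, at -0.23 ± 0.06. Of the 17 sterol synthesis genes, Sqle at 0.68 ± 0.21, Fdps at 0.37 ± 0.11 and Tm7sf2 at 0.17 ± 0.04 were higher and Idi1 at -0.65 ± 0.16 was lower, with a median of 0.25. Insig2 was higher by 0.49 ± 0.12 and Srebf1 was lower, at -0.29 ± 0.07.

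These culture counts moved with single arrays. Without KO replicate 2 of the CD24+ cells 26 members were called, 23 of them higher and 12 of those sterol synthesis genes, where 27.7% of all genes were called. Without both arrays of that mouse 24 were called (25.6% of all genes). Without WT replicate 2 of the CD24+ cells 8 were called (18.4%), and with the 8 culture arrays fitted alone 7 were (17.9%). With the mouse as a block, which pairs the 2 arrays of a mouse, 21 were called (26.6%), and Hmgcs1, Hsd17b7, Lss, Mvd, Sc5d and Abcg1 were added to the higher ones. Without WT replicate 2 of the CD24+ cells, Acaca, Elovl6, Fdps, Insig2, Sqle, Srebf1 and Tm7sf2 lost their calls. Acaca also lost it without KO replicate 2 or WT replicate 1, and Elovl6 without WT replicate 1, of the CD172a+ cells, and Acly without KO replicate 1 of the CD24+ cells. Fdps lost its call without any 1 culture array but KO replicate 2 of the CD24+ cells (adjusted p of up to 0.105). Sqle lost its call also without KO replicate 1 of the CD24+ cells, without WT replicate 1, WT replicate 2 or KO replicate 2 of the CD172a+ cells, or without either WT array of the spleen CD172a+ cells (adjusted p of up to 0.133). Of the other genes, 2 of 8 sterol and SREBP genes were higher and 2 lower in CD24+ cells, 6 of 10 sterol handling genes higher, and 6 of 11 fatty acid genes higher and 2 lower. The largest were Lipa at 1.25 and Nceh1, a cholesteryl ester hydrolase, at 1.06. With all arrays 11.6% of all genes were higher and 12.3% lower in CD24+ cells.

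**Figure D3:**
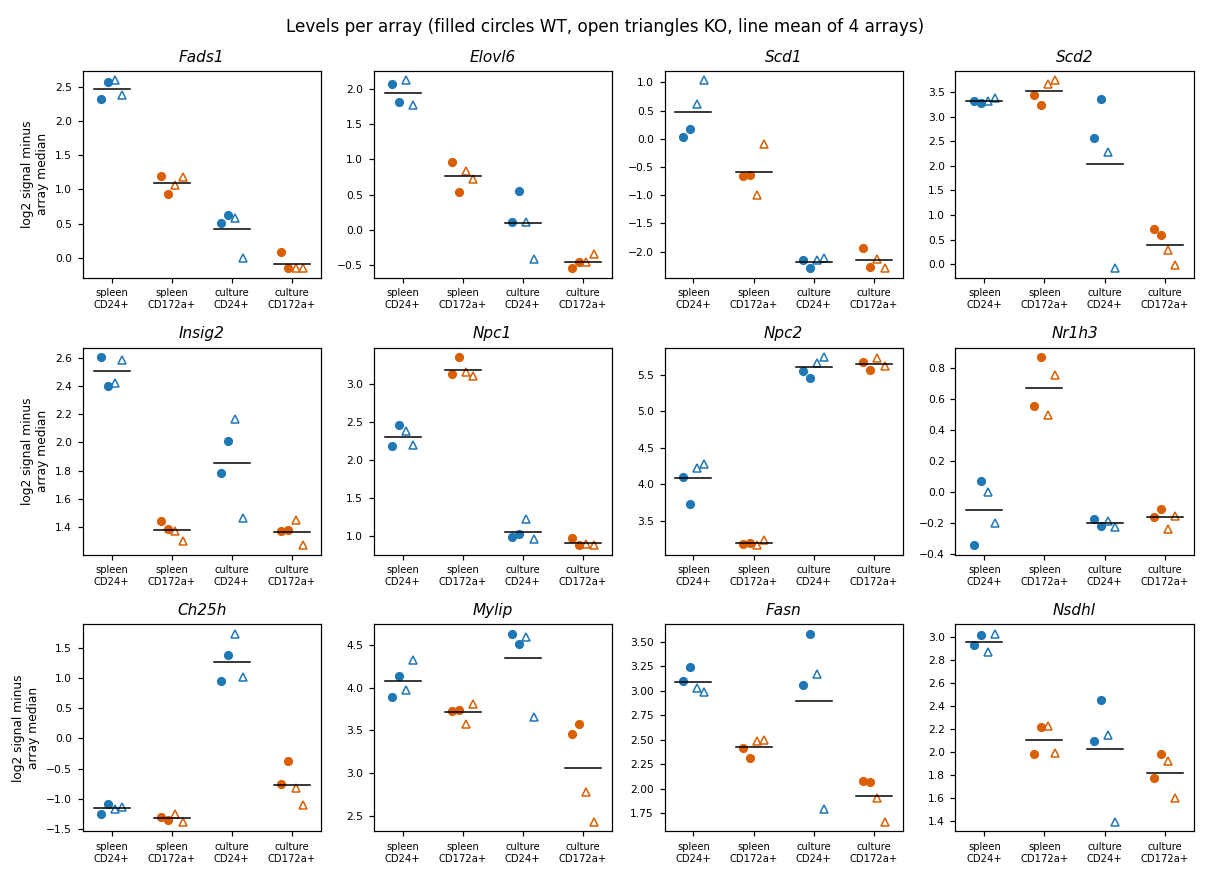
Level per array (log2 signal minus array median) of 12 members in CD24+ (blue) and CD172a+ (orange) cells of spleen and culture, with WT as filled circles, KO as open triangles and the line at the mean of 4 arrays. The vertical scale differs between genes. Fads1, Elovl6, Scd1, Npc1 and Nr1h3 separate the subsets in the spleen, and Ch25h and Mylip separate them in the culture.

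The difference between the subset differences was tested directly, as culture minus spleen. It was called for 13 of 38 members, where 26.3% of all genes were. In 6 the difference CD24+ minus CD172a+ was higher in the culture, and these were Ch25h (1.89 ± 0.21), Scd2 (1.83 ± 0.52), Npc1 (1.02 ± 0.11), Mylip (0.92 ± 0.24), Nr1h3 (0.75 ± 0.14) and Srebf2 (0.42 ± 0.12). In 7 it was higher in the spleen, and these were Scd1 (-1.08 ± 0.23), Npc2 (-0.93 ± 0.10), Fads1 (-0.86 ± 0.17), Nsdhl (-0.65 ± 0.21), Insig2 (-0.64 ± 0.18), Elovl6 (-0.64 ± 0.20) and Ebp (-0.33 ± 0.09). Npc1, Npc2, Nr1h3 and Scd1 were called between the subsets in the spleen, and in the culture their differences were 0.14 ± 0.08, -0.05 ± 0.07, -0.04 ± 0.10 and -0.02 ± 0.16. For Scd1 all 8 culture arrays were near the bottom of the scale, so a difference between the subsets could not be read there and its value over the tissues says nothing about a lost difference. Ch25h and Scd2 were called in the culture, and in the spleen their differences were 0.16 ± 0.15 and -0.20 ± 0.37. Ch25h was low in all 8 spleen arrays, between the percentiles 20.8 and 26.2 of all genes, so a difference between the subsets may not be readable there. With the mouse as a block 20 members were called (29.1% of all genes), and with the WT arrays alone 5 were (15.8%). Without KO replicate 2 of the cultured CD24+ cells 23 were called (30.0%). Without both arrays of that mouse 22 were called (28.5%). The call of Scd2 was lost without WT replicate 2 of the cultured CD24+ cells (adjusted p = 0.0557), and that of Ebp without WT replicate 1 of spleen CD172a+ or KO replicate 2 of spleen CD24+ cells (up to 0.0528). Srebf2 lost its call without KO replicate 2 of the cultured CD172a+ or WT replicate 2 of the cultured CD24+ cells, or without WT replicate 1 of either spleen subset, KO replicate 1 of spleen CD172a+ or KO replicate 2 of spleen CD24+ cells (up to 0.0611). Nsdhl lost its call in 10 of the 16 such fits, in all but those without KO replicate 1, KO replicate 2 or WT replicate 2 of the cultured CD24+, KO replicate 2 of the cultured CD172a+, or KO replicate 1 or WT replicate 2 of the spleen CD172a+ cells (up to 0.0937). Elovl6 lost its call in 10, in all but those without KO replicate 1 or WT replicate 2 of the cultured CD24+, KO replicate 1 of the cultured CD172a+, WT replicate 1 of the spleen CD172a+, or KO replicate 2 or WT replicate 2 of the spleen CD24+ cells (up to 0.0877).

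The third comparison, KO against WT, addressed whether loss of Ciita changed these genes. No member was called in any of the 7 genotype tests by limma. In the same tests 0.0602% (spleen CD24+), 0.0802% (spleen CD172a+), 0.0903% (culture CD24+) and 0.0552% (culture CD172a+) of all genes were called, as were 0.0702% and 0.0602% in the fits on the means of the spleen and the culture mice and 0.0201% for the genotype by subset difference. At an unadjusted p under 0.05 there were 4, 0, 14 and 4 members in the 4 array tests, 1 and 12 in the fits on mice and 8 for the genotype by subset difference. With 2 mice a genotype, a difference that was not called is not shown to be absent.

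In the spleen the largest differences were Scd1 in CD24+ cells, at 0.72 ± 0.23 (adjusted p = 0.93), and Scd2 in CD172a+ cells, at 0.38 ± 0.52. The 17 sterol synthesis genes had medians of -0.07 in CD24+ and 0.15 in CD172a+ cells. The KO and WT arrays did not overlap for 11 of 38 members in CD24+ cells (34.1% of all genes), 8 of them lower in KO. Thus 21.1% of the members were lower and 7.89% higher in both KO arrays, against 16.2% and 17.9% of all genes. In CD172a+ cells the KO and WT arrays did not overlap for 20 of 38 members (37.7% of all genes). There 15 members were above WT in both KO arrays, 10 of them sterol synthesis genes, and 5 below, against 3596 above and 3916 below over all genes. Hmgcs1 and Idi1 were 2 of these 10, at differences of 0.28 ± 0.30 and 0.31 ± 0.22, neither of which passed the test. The SE is that of the fit shared with the culture. For Hmgcs1 the standard deviation was 0.034 in spleen CD172a+ WT, 0.0011 in spleen CD172a+ KO and 0.84 in cultured CD24+ KO arrays.

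In the culture the sterol genes were lower in 1 KO mouse, replicate 2, in both of its subsets. In cultured CD24+ cells that array was the lowest of 4 for 31 of 38 members (32.1% of all genes) and for 16 of 17 sterol synthesis genes. In CD172a+ cells it was the lowest for 26 of 38 (29.5% of all genes) and for 14 of 17. Against the mean of the WT arrays, the median sterol synthesis gene stood at -0.88 in CD24+ and -0.46 in CD172a+ cells of that mouse, and at -0.05 and -0.11 in the other KO mouse, while the median of all genes was within 0.04 of 0 in the 4 arrays. The levels of Lss, Sc5d, Hsd17b7 and Msmo1 given above show it gene by gene, with Lss at 0.02 in that CD24+ array and at 1.38 to 2.29 in the other 3. The fatty acid genes Scd2 and Fasn were also lowest there, at -0.08 and 1.79 against 2.28 to 3.36 and 3.06 to 3.58. Insig1 followed at 2.91 against 3.34 to 3.67, and Abcg1 at 2.21 against 2.88 to 3.09, so that a gene of efflux was low together with the synthesis genes. Srebf1, Acly and Npc2 were not low in that array, at 2.38, 3.23 and 5.74, each the highest of the 4.

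**Figure D4:**
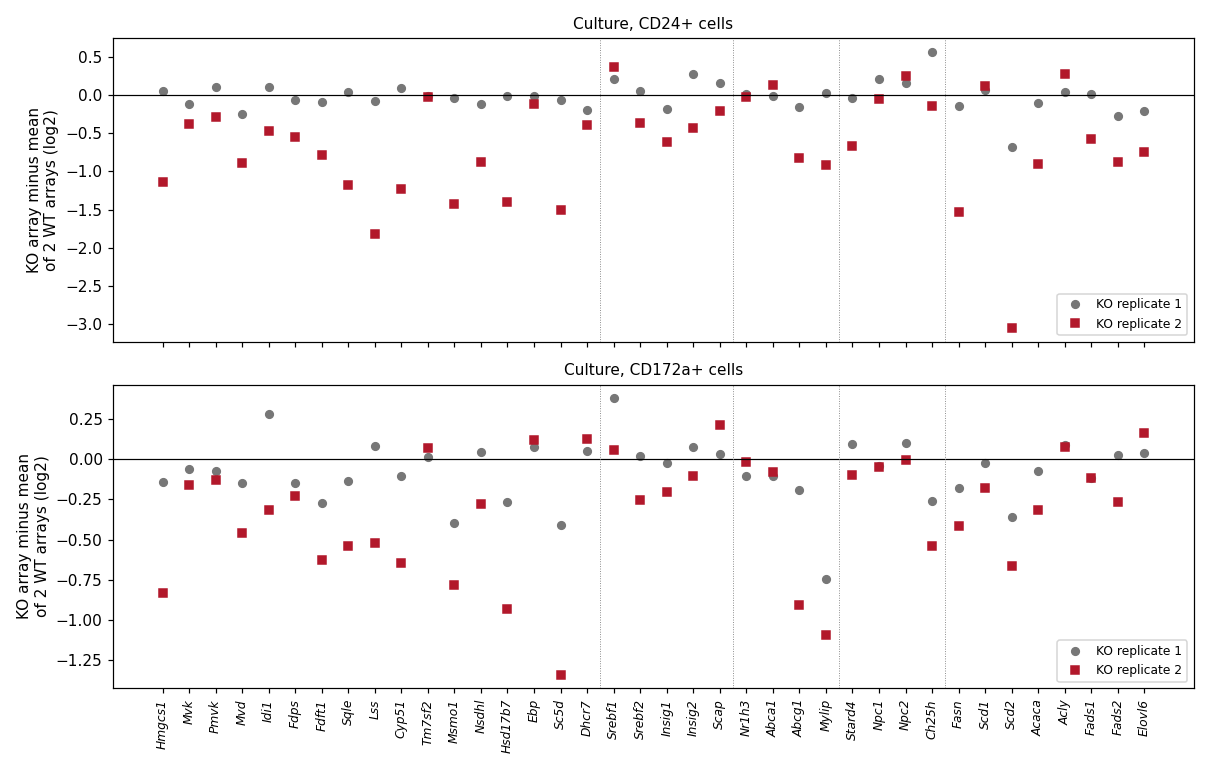
Each KO array of the culture minus the mean of the 2 WT arrays (log2) for the 38 members, in CD24+ (top) and CD172a+ (bottom) cells, with KO replicate 1 in grey and KO replicate 2 in red and dotted lines separating the role groups. In CD24+ cells replicate 1 lies between -0.69 for Scd2 and 0.57 for Ch25h, while replicate 2 falls to -1.82 for Lss and -3.05 for Scd2.

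Other genes moved with that mouse too. Its CD24+ cells had Xcr1 at 2.64 against 3.47 to 3.94 in the other 3, Sirpa at 2.23 against 1.45 to 1.49 and Irf4 at 2.75 against 1.47 to 2.32. Of the 3 measured genes of proliferating cells, Top2a (0.27 against 1.53 to 1.62) and Cdk1 (1.53 against 2.16 to 2.68) were lower and Mki67 (3.90 against 2.83 to 3.29) was higher. The CD172a+ cells of that mouse also stood apart from the other 3 arrays in Itgam (-0.35 against 0.29 to 1.20), Itgax (0.89 against 1.35 to 1.74), Batf3 (5.17 against 4.68 to 4.83) and Mki67 (3.07 against 2.42 to 2.66). The part of these in the sterol gene levels was not tested. The genotype difference in cultured CD24+ cells was largest for Scd2, at -1.87 ± 0.52 (adjusted p = 0.465), and for Lss among the sterol genes, at -0.95 ± 0.45 (adjusted p = 0.664). Leaving out KO replicate 1 made replicate 2 the only KO array of the group, assumed to vary like the other groups, and 20 members were then called lower, 11 of them sterol synthesis genes, where 6.12% of all genes were called. Leaving out replicate 2 instead called none, with 0.0802% of all genes called. In the fit on mice 19 members were called lower without KO replicate 1 (6.58% of all genes) and none without KO replicate 2 (0.0702%).

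In cultured CD172a+ cells the KO and WT arrays did not overlap for 20 of 38 members (35.7% of all genes). Both KO arrays were below WT for 16 of them, 9 being sterol synthesis genes, and above for 4, against 3369 below and 3744 above over all genes. Thus 42.1% of the members and 52.9% of the sterol synthesis genes were below, against 16.9% of all genes. Above were 10.5% of the members, against 18.8% of all genes. In cultured CD24+ cells the KO and WT arrays did not overlap for 11 of 38 members (32.3% of all genes), 8 of them lower in KO. Thus 21.1% of the members were lower and 7.89% higher in both KO arrays, against 11.9% and 20.4% of all genes. Sc5d was among the 16 in CD172a+ cells, at -0.88 ± 0.37 (adjusted p = 0.772). Mylip had the largest difference there, at -0.92 ± 0.24 (adjusted p = 0.495), with both KO arrays below both WT arrays. Mylip was called when KO replicate 1 or KO replicate 2 of the CD24+ cells was left out and 0.145% of all genes were called in each of those fits. For the genotype by subset difference, averaged over the tissues, the largest values were Scd2 at -0.84 ± 0.39 and Fasn at -0.41 ± 0.23 (adjusted p = 0.926 and 0.927). The other genes of these pathways had no call in any of the 7 genotype tests.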

How the data were processed

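The authors deposited log2 signals for 30177 probe sets of 16 arrays. Their background correction, normalization and summary method are not given in the sources used here, and array medians that differed between the tissues may reflect separate normalization. Of the probe sets, 21789 carried 1 gene symbol, 1621 several and 6767 none. Those with 1 symbol gave 19938 genes, each read from its probe set with the highest mean, and each array's median over these genes was subtracted. Low values were not filtered.

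Groups were fitted together with limma 3.58.1 in R 4.3.3 (lmFit, eBayes, 8 residual degrees of freedom), with Benjamini-Hochberg adjustment over all genes and a threshold of 0.05. Genotype was fitted within each tissue and subset, and also on means and on subset differences of the 8 mice. Tables were handled in Python 3.11.15 with pandas 2.3.3. The fit was tested on simulated data.

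The labels name the mouse of each array, so the CD24+ and CD172a+ arrays of a number within a tissue and genotype come from the same mouse. Deviations of paired arrays correlated at 0.393 (culture KO), 0.205 (culture WT), 0.202 (spleen KO) and -0.0957 (spleen WT). No arrays were identical (smallest median absolute difference 0.0818).

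The members and lists were chosen with earlier results of these data known. Every member could be named. Levels on each array were given for members called in a comparison or largest in their role group, and at most the 4 largest calls of the other pathway lists were named. Alternatives were the deposited values, quantile normalization, other probe set rules, a filter on the dimmest 25% of genes, an intensity trend with a robust prior, arrays of 1 tissue, WT arrays alone, the mouse as a fixed or random block and leaving out each array. The lowest-mean probe set and leaving out both arrays of KO replicate 2 of the culture were added after seeing the data.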

Additional observations from a re-analysis of the deposited data

Results flagged for a closer look

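For 13 members the difference between the subsets itself differed between the tissues, by the interaction term of the limma fit. As culture minus spleen of CD24+ minus CD172a+, it was 1.89 for Ch25h, 1.83 for Scd2, 1.02 for Npc1, 0.92 for Mylip, 0.75 for Nr1h3 and 0.42 for Srebf2. It was -1.08 for Scd1, -0.93 for Npc2, -0.86 for Fads1, -0.65 for Nsdhl, -0.64 for Insig2, -0.64 for Elovl6 and -0.33 for Ebp. For Scd1 all 8 culture arrays were near the bottom of the scale, so its value holds no reading of the subsets there. Ch25h was low in all 8 spleen arrays (percentiles 20.8 to 26.2), so a difference between the subsets may not be readable in the spleen.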

How the results depend on the processing

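Leaving out 1 array gave 12 to 18 called members for the subsets in the spleen (15 with all arrays), 8 to 26 for the subsets in the culture (15), 10 to 23 for the difference between those (13), 31 to 33 for the tissues in CD24+ cells (31) and 28 to 34 in CD172a+ cells (31). For genotype in the culture it gave 0 to 20 in CD24+ cells, 0 to 1 in CD172a+ cells and 0 to 19 on mice, against 0 with all arrays. The other 4 genotype tests had 0 throughout. Without both arrays of KO replicate 2 of the culture, an alternative chosen after seeing the data, the counts were 24 for the subsets in the culture and 22 for the difference between tissues. The culture arrays alone gave 7 (17.9% of all genes), and the WT arrays alone gave 5 for the difference between tissues (15.8%).

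With the mouse as a fixed replicate block, which uses the pairing of the arrays, 20 members were called for the difference between tissues (29.1% of all genes), 19 for the subsets in the spleen (31.0%) and 21 for those in the culture (26.6%), and no member lost its call. The block could not be fitted for tissue and genotype, since each mouse belongs to 1 tissue and 1 genotype.

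On the deposited values 3 calls changed sign, Acly in CD24+ cells (-0.11) and Srebf2 (-0.15) and Abcg1 (-0.018) in CD172a+ cells. Under every alternative, 11 of 15 members kept their call for the subsets in the spleen, 4 of 15 for those in the culture, 5 of 13 for the difference between tissues, and 27 and 21 of 31 for the tissues. With 2 arrays a group, small differences were not detectable at this precision. Scd1 and Ch25h were near the low end of the signal in some groups, and Abca1 was low in all.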
